A study of Homo sapiens with 15 samples.

Results

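The 10 genes described here encode cytokines of the interleukin 6 (IL6) family, the receptor chains that bind them, and the kinase, transcription factor and inhibitor that carry and end their signal. They were chosen by gene symbol, with earlier results of these data known. All 10 of them (IL6, LIF, IL11, IL6R, IL6ST, LIFR, OSMR, JAK2, STAT3 and SOCS3) were found among the 33158 genes of the deposited table. RNA was sequenced from 3 triple negative breast cancer cell lines in 5 groups of 3 libraries. SUM149PT and HCC1937 cells were sorted by flow cytometry into CD44+/CD24-/low cells, which the study took as cancer stem cells (CSCs), and the rest, taken as non-CSCs. SUM159PT was sequenced unsorted, and the study treated the whole line as CSCs. None of the groups was treated with a drug or a cytokine in the labels.

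Levels are given in FPKM, a count of sequenced fragments divided by transcript length and by the fragments mapped in the library, which can be set side by side between genes because they are per length. The table holds no counts, so the depth behind each value is unknown. The labels do not say whether the 3 libraries of a group come from separate cultures or from 1 culture, so a p-value here measures only the spread between libraries. Libraries of a group correlated at 0.972 to 0.990 in log2 levels over the genes averaging 0.1 FPKM or more. The SUM159PT libraries stood apart: their FPKM summed to 634746 to 652082, against 291276 to 366532 in the 12 sorted libraries, and 8534 to 8670 genes exceeded 1 FPKM in them, against 11249 to 11997. For this reason the sorted lines are described first.

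As background, IL6, LIF and IL11 are secreted proteins that each bind another receptor chain and then the shared chain IL6ST, which carries the signal into the cell. JAK kinases bound to the receptor phosphorylate STAT3, which enters the nucleus and switches on its target genes, among them SOCS3, whose protein binds the receptor complex and ends the signal. In breast cancer the pathway is known for its links to growth, invasion and the CD44+/CD24- state. The values below are RNA levels and say nothing of how much cytokine was secreted or how much STAT3 was phosphorylated.

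The regulatory sequence before each gene's start is shown for the genes that were higher in the CSCs of both lines and whose window held a searched motif. Windows of 300 bases, 250 before to 50 after the start, come from RefSeq on GRCh38.p14, where 9 of the 10 genes matched by symbol, with 15 windows among them, and LIF had none. The motifs were TTCNNNGAA, the letters of a STAT element, TTGCNNAA, the letters of a C/EBP element, and the NF-kappaB element by its name, each searched on both strands. Of 35116 windows of this length, 7.66% held the STAT letters, 10.5% the C/EBP letters and 11.3% the NF-kappaB letters. Capitals mark the matches, none of which overlaps another.
IL6 (chr7:22726950-22727249, plus strand): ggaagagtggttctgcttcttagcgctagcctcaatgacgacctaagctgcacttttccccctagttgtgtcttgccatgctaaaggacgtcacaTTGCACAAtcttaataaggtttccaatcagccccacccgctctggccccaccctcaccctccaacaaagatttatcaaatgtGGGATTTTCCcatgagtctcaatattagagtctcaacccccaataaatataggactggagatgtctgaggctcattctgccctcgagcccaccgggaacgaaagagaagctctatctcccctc
IL6ST (chr5:55994914-55995213, minus strand): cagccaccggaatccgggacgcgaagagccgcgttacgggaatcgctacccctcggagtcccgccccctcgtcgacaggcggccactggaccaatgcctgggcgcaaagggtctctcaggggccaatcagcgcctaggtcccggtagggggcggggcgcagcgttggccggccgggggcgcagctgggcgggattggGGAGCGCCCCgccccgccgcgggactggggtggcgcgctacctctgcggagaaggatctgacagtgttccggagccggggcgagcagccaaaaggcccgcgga
LIFR, 1 of its 3 windows (chr5:38595356-38595655, minus strand): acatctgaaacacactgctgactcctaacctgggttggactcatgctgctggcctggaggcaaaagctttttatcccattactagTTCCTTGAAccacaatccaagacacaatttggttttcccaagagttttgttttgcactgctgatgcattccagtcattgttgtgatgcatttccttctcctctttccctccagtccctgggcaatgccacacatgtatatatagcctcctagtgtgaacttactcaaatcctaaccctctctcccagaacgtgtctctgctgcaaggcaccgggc
The IL6 window held C/EBP letters at -155 and NF-kappaB letters at -73 from the start. That of IL6ST held NF-kappaB letters, on the other strand, at -53. In the LIFR window the STAT letters TTCCTTGAA began at -165. Another LIFR window held STAT letters at -182 and C/EBP letters at -31, and the OSMR window held C/EBP letters at -73. The windows of IL11, IL6R, JAK2, STAT3 and SOCS3 held none of these letters. A match describes the letters and is not a binding site.

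IL6, the cytokine that gives the family its name, was higher in the CSCs of both lines. In SUM149PT it stood at 19.3, 20.6 and 21.0 FPKM in the CSC libraries and at 9.997, 11.3 and 8.78 FPKM in the non-CSC libraries. In HCC1937 it stood at 18.8, 14.9 and 16.7 FPKM in CSCs and at 4.18, 4.36 and 3.25 FPKM in non-CSCs. Every CSC library lay above every non-CSC library, and the lines lay closer together in their CSCs than in their non-CSCs. The log2 fold change of CSCs over non-CSCs was 1.02 (SE 0.10, adjusted p = 2.92e-04) in SUM149PT and 2.07 (SE 0.15, adjusted p = 5.38e-04) in HCC1937. The difference between these fold changes, SUM149PT minus HCC1937, was -1.06 (adjusted p = 7.50e-04). In bulk libraries such as these, fewer cells that express a gene and less of its RNA in each cell cannot be told apart.

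LIF, leukemia inhibitory factor, moved the other way. Its level in SUM149PT was 22.9, 22.8 and 23.4 FPKM in CSCs and 89.8, 92.4 and 85.2 FPKM in non-CSCs. For HCC1937 the LIF values were 21.6, 20.4 and 21.3 FPKM in CSCs and 36.0, 34.6 and 36.5 FPKM in non-CSCs. All 3 CSC libraries of each line lay below all 3 of its non-CSC libraries, and the 6 CSC libraries of the 2 lines fell in a narrow band. LIF was 3.87-fold higher in non-CSCs of SUM149PT (log2 fold change -1.95, SE 0.06, adjusted p = 3.56e-06) and 1.69-fold higher in those of HCC1937 (-0.76, SE 0.06, adjusted p = 9.09e-04). The fall was larger in SUM149PT, with a difference between lines of -1.19 (adjusted p = 6.37e-07).

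IL11, a cytokine that signals through IL6ST with a receptor chain of its own, had opposite directions in the lines. SUM149PT held 8.20, 8.28 and 8.80 FPKM in CSCs and 21.4, 24.0 and 20.9 FPKM in non-CSCs. HCC1937 held 15.6, 13.3 and 13.1 FPKM in CSCs and 7.27, 7.81 and 7.94 FPKM in non-CSCs. Neither line had overlapping fractions: the non-CSCs were the high group in SUM149PT and the CSCs in HCC1937. The IL11 fold change was -1.38 (SE 0.07, adjusted p = 2.34e-05) and 0.86 (SE 0.09, adjusted p = 0.00207) on the log2 scale. Of the 10 genes, it had the largest difference between lines, -2.24 (adjusted p = 2.00e-07).

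IL6ST, the shared signaling chain, was the most abundant of the receptor chains in the CSCs of both lines. Its SUM149PT values were 61.2, 56.4 and 59.1 FPKM in CSCs and 19.6, 18.7 and 18.2 FPKM in non-CSCs. Its HCC1937 values were 44.4, 44.7 and 46.9 FPKM in CSCs and 22.0, 22.3 and 24.3 FPKM in non-CSCs. CSC libraries lay far above non-CSC libraries in both lines. IL6ST was 3.13-fold higher in SUM149PT CSCs (log2 fold change 1.64, SE 0.06, adjusted p = 7.15e-06) and 1.98-fold higher in HCC1937 CSCs (0.98, SE 0.07, adjusted p = 5.95e-04). The fold changes differed between lines by 0.66 (adjusted p = 1.07e-04).

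IL6R, the chain that binds IL6, was low throughout and higher in CSCs. In SUM149PT it was at 3.21, 3.14 and 3.07 FPKM in CSCs and at 0.587, 0.576 and 0.782 FPKM in non-CSCs. HCC1937 CSCs had 2.04, 2.25 and 2.38 FPKM and its non-CSCs 1.22, 1.22 and 1.31 FPKM. No CSC library fell within the non-CSC values of its line. The IL6R log2 fold change was 2.12 (SE 0.12, adjusted p = 2.44e-05) in SUM149PT, 0.78 (SE 0.08, adjusted p = 0.00180) in HCC1937, and differed between lines by 1.34 (adjusted p = 2.39e-05). Because IL6R is near 1 FPKM, these sizes depend on the 0.1 FPKM added before taking logs: with 1 FPKM added they were 1.33, 0.52 and 0.81, each still past the test.

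LIFR, the chain that LIF binds, was higher in CSCs of both lines at very different levels. SUM149PT had 6.75, 5.93 and 6.13 FPKM in CSCs and 2.38, 2.40 and 2.48 FPKM in non-CSCs. HCC1937 had 0.711, 0.888 and 0.855 FPKM in CSCs and 0.316, 0.275 and 0.312 FPKM in non-CSCs. The fractions were apart in both lines, and the non-CSCs of SUM149PT lay above the CSCs of HCC1937. The ratio of CSCs to non-CSCs was 2.59 in SUM149PT (log2 fold change 1.34, SE 0.07, adjusted p = 1.91e-05) and 2.72 in HCC1937 (1.19, SE 0.10, adjusted p = 9.30e-04). The difference of the fold changes between lines, 0.15, did not pass (adjusted p = 0.322). With 1 FPKM added before taking logs, the fold change in HCC1937 was 0.48 and the difference between lines was 0.61, which passed (adjusted p = 4.23e-05). The sign of that difference turned with 0.01 FPKM added (-0.04) and with TPM rescaling (-0.06).

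OSMR, the chain that binds oncostatin M, changed little between fractions. Across its libraries it ranged from 22.5 to 23.5 FPKM in SUM149PT CSCs and from 19.7 to 20.4 FPKM in the non-CSCs. In HCC1937 it ranged from 12.9 to 14.02 FPKM in CSCs and from 11.6 to 12.2 FPKM in non-CSCs. The CSC libraries were the higher ones in both lines, by a small margin and without overlap. Its log2 fold change was 0.19 (SE 0.05, adjusted p = 0.0184) in SUM149PT and 0.18 (SE 0.07, adjusted p = 0.108) in HCC1937, and the difference of 0.01 between lines did not pass (adjusted p = 0.907). The SUM149PT call was lost in a fit over all 15 libraries (adjusted p = 0.0644), with the replicate number as a block (0.0620) and without CSC replicate 1 (0.0611), CSC replicate 3 (0.0539) or non-CSC replicate 3 (0.0503). OSMR passed in HCC1937 with upper quartile scaling (0.0450), quantile normalization (0.0386) or the GC trend removed (0.0486).

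Set against IL6ST in the same library, the chains IL6R, LIFR and OSMR made up different shares. The level of IL6R was 5.34% ± 0.208 of that of IL6ST in SUM149PT CSCs and 3.46% ± 0.733 in the non-CSCs (SD, n = 3). In HCC1937 it was 4.91% ± 0.265 in CSCs and 5.47% ± 0.0729 in non-CSCs. The IL6R shares of SUM149PT moved with the correction, on the scale of FPKM with 0.1 added. There the CSC share was 5.50%, and 9.17% with the GC trend removed. The non-CSC share was 3.97%, and 2.60% with quantile normalization. LIFR stood at 10.6% ± 0.341 and 12.9% ± 0.753 of IL6ST in SUM149PT CSCs and then non-CSCs, and at 1.80% ± 0.193 and 1.32% ± 0.106 in those of HCC1937. OSMR was at 38.9% ± 0.919 and 106.8% ± 3.46 of IL6ST in SUM149PT, and at 29.7% ± 1.63 and 52.0% ± 1.98 in HCC1937. Of these 3 chains OSMR was thus the nearest to IL6ST in level in both lines, and closer to it in non-CSCs than in CSCs. Other receptor chains were not set against IL6ST.

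JAK2, a kinase that phosphorylates STAT3, was near 1 FPKM in all sorted groups. SUM149PT had 1.58, 1.23 and 1.53 FPKM in CSCs and 1.12, 1.05 and 0.960 FPKM in non-CSCs. In HCC1937 the JAK2 values were 0.913, 1.26 and 1.13 FPKM in CSCs and 0.923, 0.914 and 1.14 FPKM in non-CSCs. CSC libraries were above non-CSC libraries in SUM149PT, while the fractions of HCC1937 overlapped. The fold change was 0.43 (SE 0.11, adjusted p = 0.0154) in SUM149PT and 0.13 (SE 0.14, adjusted p = 0.567) in HCC1937, and their difference of 0.30 did not pass (adjusted p = 0.195). In SUM149PT it was 0.86 with quantile normalization and 0.26 with 1 FPKM added, and the call was lost without CSC replicate 3 (adjusted p = 0.0527) or non-CSC replicate 3 (0.05005). Quantile normalization also brought the difference between lines to 0.66, which passed (adjusted p = 0.0123).

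STAT3, the transcription factor at the end of the pathway, was higher in CSCs of SUM149PT and lower in CSCs of HCC1937. Its level was 33.1, 31.1 and 32.8 FPKM in SUM149PT CSCs and 21.1, 20.2 and 20.9 FPKM in the non-CSCs. It was 44.2, 40.8 and 40.3 FPKM in HCC1937 CSCs and 62.0, 60.3 and 63.0 FPKM in the non-CSCs. All 6 HCC1937 libraries lay above all 6 SUM149PT libraries, and the fractions were apart within each line. CSCs of SUM149PT had 1.56 times the non-CSC level (log2 fold change 0.64, SE 0.06, adjusted p = 1.42e-04), while in HCC1937 the non-CSCs had 1.48 times the CSC level (-0.56, SE 0.07, adjusted p = 0.00290). The fold changes differed by 1.21 (adjusted p = 8.05e-07).

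SOCS3, the feedback inhibitor that STAT3 switches on, was lower in CSCs of SUM149PT. The libraries of that line gave 19.9, 19.6 and 19.1 FPKM in CSCs and 27.4, 28.2 and 26.3 FPKM in non-CSCs. Those of HCC1937 gave 12.2, 11.5 and 11.3 FPKM in CSCs and 10.1, 10.2 and 10.2 FPKM in non-CSCs. CSC and non-CSC values were apart in both lines, but the gap in HCC1937 was narrow and pointed the other way. The SOCS3 fold change was -0.48 (SE 0.06, adjusted p = 4.89e-04) in SUM149PT and 0.19 (SE 0.06, adjusted p = 0.0811) in HCC1937, with a difference between lines of -0.67 (adjusted p = 2.74e-05). In SUM149PT it was -0.17 with the GC trend removed. In HCC1937 it passed with upper quartile scaling (adjusted p = 0.0255), quantile normalization (0.0208), TPM rescaling (0.0280), the GC trend removed (0.0122) or the length trend removed (0.0119).

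**Figure D1:**
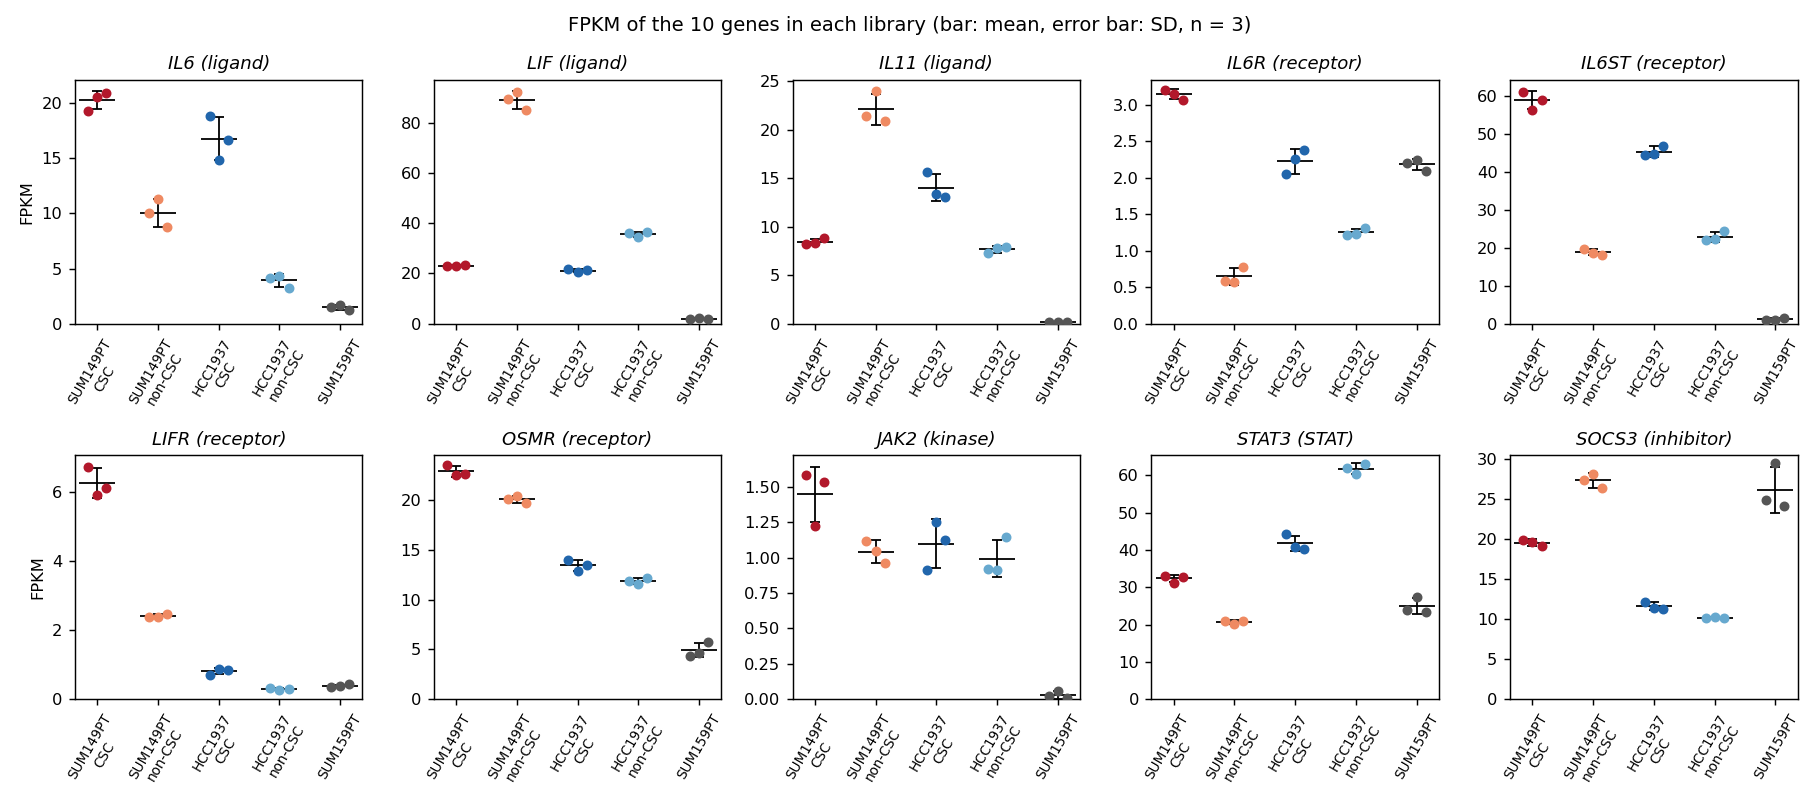
FPKM of each of the 10 genes (vertical axis, from 0) in every library of the 5 groups (horizontal axis); points are libraries, bars are means and error bars SD, with 3 libraries per group. IL6, IL6R, IL6ST and LIFR are higher in the CSCs of both sorted lines, LIF is lower in them, and IL11 and STAT3 change places between the lines.

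Counted together, all 10 genes passed the test in SUM149PT, where the limit is an adjusted p of 0.05. Because the genes were chosen with earlier results known, the shares of all genes given beside them, here and below, are no test of the set. Of these, 7 were higher in CSCs, where 33.3% of the 16037 genes tested were called higher, and 3 were lower, where 41.5% of all genes were. The 7 became 6 with the replicate number as a block, in the fit over all 15 libraries and without CSC replicate 1, and 5 without CSC replicate 3 or non-CSC replicate 3. At a stricter limit, adjusted p at most 0.0001 and absolute log2 fold change at least 1, 5 of the 10 passed (LIF, IL11, IL6R, IL6ST and LIFR), against 20.5% of all genes. That count is not firm: it was 6 in the fit over all 15 libraries, 1 to 3 with a library left out and 0 with the replicate number as a block. Fractions did not overlap for 10 of the 10 genes, and for 78.7% of all genes. The median log2 fold change of the 10 genes was 0.54, beside -0.11 over all genes, and their median absolute value was 1.18, beside 0.71. With quantile normalization the median over all genes was 0.10 and the 10 genes kept their directions.

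In HCC1937, 5 of the 10 genes were higher in CSCs, against 10.3% of the 15582 genes tested, and 2 were lower, against 15.3%. OSMR, JAK2 and SOCS3 did not pass. None of the 10 reached the stricter limit, a count of 0 that limma gave for all genes as well (0% called). The smallest adjusted p of any gene in this fit of 6 libraries was 1.28e-04, so no gene could pass it, while unadjusted p was at most 0.05 for 5886 genes. In the fit over all 15 libraries 2 of the 10 genes passed the stricter limit, IL6 (2.07, adjusted p = 4.08e-07) and LIFR (1.19, adjusted p = 7.60e-07), against 5.39% of all genes. The fractions did not overlap for 9 of the 10 genes, all but JAK2, and for 43.4% of all genes. The median log2 fold change was 0.49, beside -0.03 over all genes, and the median absolute value 0.77, beside 0.24. With TPM rescaling the median over all genes was 0.09. For a single gene, an exact permutation test of 3 libraries against 3 (two-sided) cannot go below p = 0.10, which every one of the 10 genes reached in both lines except JAK2 in HCC1937 (exact p = 0.70).

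The SUM149PT and HCC1937 comparisons share no library. Of the 14423 genes tested in both, 5.93% were higher in CSCs of both lines, and 4 of the 10 genes were: IL6, IL6R, IL6ST and LIFR. As the 10 were chosen with earlier results of these data known, such a count does not test them as a set. LIF alone was lower in both, as 10.1% of all genes were. IL11 and STAT3, 2 of the 10, passed in opposite directions, as 5.84% of all genes did. The fold change itself differed between lines for 7 of the 10 genes, beside 61.1% of the 16451 genes tested, so this count lies near the background. No gene of the 10 changed direction within SUM149PT or within HCC1937 under any alternative run.

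**Figure D2:**
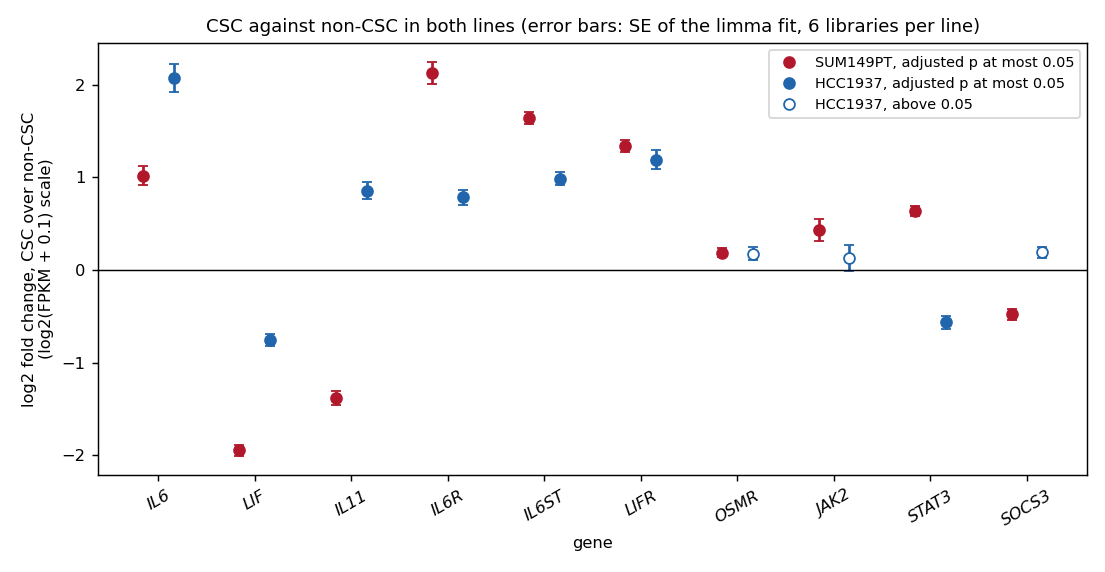
Log2 fold change of CSCs over non-CSCs (vertical axis, log2(FPKM + 0.1) scale) for each of the 10 genes (horizontal axis) in SUM149PT and HCC1937; error bars are the SE of the limma fit over 6 libraries and open symbols mark an adjusted p above 0.05. IL6 has the larger rise in HCC1937, IL6R and IL6ST have it in SUM149PT, and the points of IL11 and STAT3 lie on opposite sides of 0.

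Ordering the 5 groups by level separates the genes further. IL6 ran from SUM149PT CSCs (mean 20.3 FPKM) through HCC1937 CSCs, SUM149PT non-CSCs and HCC1937 non-CSCs to SUM159PT (1.47 FPKM), a ratio of 13.8 between the ends. The top neighbours in this order, the CSCs of both lines, did not pass at the limit (adjusted p = 0.0955) and did not overlap. LIF was highest in the non-CSCs of SUM149PT (89.1 FPKM) and then of HCC1937, followed by the CSCs of SUM149PT and of HCC1937 and by SUM159PT (1.88 FPKM). The step between the CSCs did not pass (adjusted p = 0.148), though their libraries did not overlap. IL11 ran from SUM149PT non-CSCs (22.1 FPKM) through HCC1937 CSCs, SUM149PT CSCs and HCC1937 non-CSCs to SUM159PT (0.156 FPKM), and the step from the CSCs of SUM149PT to the non-CSCs of HCC1937 did not pass (adjusted p = 0.251). Each of the ligands was thus lowest in SUM159PT in uncorrected FPKM. For IL6 this did not hold in every scaling: SUM159PT lay above HCC1937 non-CSCs by 0.44 with the GC trend removed (adjusted p = 0.00995) and by 0.30 with quantile normalization (adjusted p = 0.0605).

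Among the receptor chains, IL6ST fell from SUM149PT CSCs (58.9 FPKM) through HCC1937 CSCs, HCC1937 non-CSCs and SUM149PT non-CSCs to SUM159PT (1.15 FPKM), and the step between the non-CSC groups did not pass (adjusted p = 0.0750). LIFR fell from SUM149PT CSCs (6.27 FPKM) through SUM149PT non-CSCs, HCC1937 CSCs and SUM159PT to HCC1937 non-CSCs (0.301 FPKM), and each step passed (adjusted p at most 0.0116). The step from HCC1937 CSCs to SUM159PT turned with quantile normalization (SUM159PT higher by 0.75) and after removal of the GC trend (1.95) or of the length trend (1.24). For OSMR, SUM149PT CSCs and non-CSCs came first, then HCC1937 CSCs and non-CSCs, a step that did not pass (adjusted p = 0.108), and then SUM159PT. After removal of the GC trend or of the length trend, OSMR in SUM159PT lay above HCC1937 CSCs (by 0.21 and 0.32). IL6R had its highest mean in SUM149PT CSCs (3.14 FPKM) and its lowest in SUM149PT non-CSCs (0.648 FPKM), and its level in SUM159PT overlapped that of HCC1937 CSCs (adjusted p = 0.809). In these uncorrected levels IL6R alone of the 10 genes spanned its whole range within 1 line. With quantile normalization or the length trend removed, SUM159PT lay above SUM149PT CSCs in IL6R (by 0.77 and 1.31).

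Further down the pathway, STAT3 went from HCC1937 non-CSCs (61.8 FPKM) through HCC1937 CSCs, SUM149PT CSCs and SUM159PT to SUM149PT non-CSCs (20.7 FPKM), and each step passed. Their order depends on the correction: the step from SUM149PT CSCs to SUM159PT turned after removal of the GC trend (0.07, adjusted p = 0.277) or of the length trend (1.22), and the step between the CSCs of the lines was lost with the former (adjusted p = 0.0680). SOCS3 was highest in SUM149PT non-CSCs (27.3 FPKM) and SUM159PT, whose libraries overlapped (adjusted p = 0.402). The place of SUM159PT depends on the correction here too: it lay below SUM149PT CSCs with TPM rescaling (-0.67, adjusted p = 6.71e-06) and after removal of the GC trend (-0.23, adjusted p = 0.00833). The order of SOCS3 then went on with SUM149PT CSCs, HCC1937 CSCs and HCC1937 non-CSCs (10.2 FPKM), of which the last step did not pass (adjusted p = 0.0811). JAK2 was highest in SUM149PT CSCs (1.45 FPKM), next to HCC1937 CSCs (adjusted p = 0.0467, with overlap), and the steps from there to SUM149PT non-CSCs (0.739) and to HCC1937 non-CSCs (0.707) did not pass. In uncorrected FPKM STAT3 and SOCS3 had the narrowest ranges of the 10 genes, with ratios of 2.98 and 2.68 between the highest and lowest mean. The next ratio, 4.65 for OSMR, rests on its low level in SUM159PT. With the GC trend removed that level lay above HCC1937 CSCs (by 0.21), so this ranking depends on the correction. The STAT3 level was higher than that of at least 92.5% of the 33158 genes of the deposited table in every group. Of these, 14421 to 16842 are listed at 0 in a given library.

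Spread between libraries was small in the sorted groups. The coefficient of variation of the 10 genes ran from 0.515% to 17.9% there, with a median of 4.09%, and had a median of 13.3% in SUM159PT.

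Between the lines, the CSC fractions differed for 8 of the 10 genes, all but IL6 and LIF, where 76.9% of the 16373 genes tested differed. LIFR had the widest gap, 7.67-fold lower in HCC1937 CSCs than in SUM149PT CSCs (log2 difference -2.80, adjusted p = 2.50e-11). OSMR (-0.76), SOCS3 (-0.74) and IL6R (-0.48) were also lower in HCC1937, and IL11 (0.72) and STAT3 (0.37) were higher. The median over all genes was 0.22 in this comparison, and 0.04 with upper quartile scaling. The IL6ST difference of -0.38 (adjusted p = 0.0226) was lost without SUM149PT CSC replicate 1 (0.0641) or 3 (0.0509) and without HCC1937 CSC replicate 1 (0.0554) or 2 (0.0538). With the length trend removed it was -0.24 (0.0538), and with quantile normalization -0.60. JAK2 (-0.37, adjusted p = 0.0467) was lost without SUM149PT CSC replicate 1 (0.141) or 3 (0.123), without HCC1937 CSC replicate 1 (0.182) or 3 (0.0698), and under 6 of 11 other alternatives. IL6 (-0.28) passed under 7 of 12 alternatives and LIF (-0.13) under 4 (adjusted p = 8.01e-04, 0.00140, 0.00143 and 9.00e-05), and with the GC trend removed STAT3 fell to 0.12 (adjusted p = 0.0680). Other sizes moved as well: IL11 to 0.38 with the length trend removed and IL6R to -0.74 with the GC trend removed. IL6 reached -0.73 with the length trend removed, and LIF -0.45 with the GC trend removed.

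Non-CSC fractions of the lines differed for 8 of the 10 genes as well, where 76.8% of all genes did. The median over all genes was 0.09, and -0.08 with upper quartile scaling. STAT3 was 2.98-fold higher in HCC1937 (log2 difference 1.57, adjusted p = 5.15e-10) and IL6R was higher too (0.86). The ligands IL6 (-1.33), LIF (-1.32) and IL11 (-1.51) were lower in HCC1937, as were LIFR (-2.65), OSMR (-0.75) and SOCS3 (-1.41). IL6ST (0.28, adjusted p = 0.0750) and JAK2 (-0.07, adjusted p = 0.707) did not pass. IL6ST passed under 4 of 12 alternatives, and the sign of JAK2 turned with quantile normalization (0.06). With 1 FPKM added before taking logs, IL6R was 0.45 and LIFR -1.39. Across fractions, HCC1937 non-CSCs differed from SUM149PT CSCs for 9 genes, all but IL11 (78.9% of all genes), and HCC1937 CSCs from SUM149PT non-CSCs for 9, all but JAK2 (77.1%).

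Taking both fractions together, 6 libraries against 6, an exact permutation test (two-sided, 10 such tests run) gave its smallest possible value, p = 0.00216, for LIFR, OSMR, STAT3 and SOCS3. Their mean levels in HCC1937 were 0.129, 0.590, 1.95 and 0.466 times those in SUM149PT, and for these 4 genes the libraries of the lines did not overlap. For IL6 (exact p = 0.160), LIF (0.143), IL11 (0.290), IL6R (0.712), IL6ST (0.853) and JAK2 (0.141) the test did not pass, but it pools the fractions, and its p-value says nothing of the lines within a fraction. Within each fraction every HCC1937 library of IL6 and of LIF lay below every SUM149PT library. For IL6, IL6R and IL6ST, by contrast, every CSC library of either line lay above every non-CSC library of either line, and for LIF every one lay below.

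The wider pathway was read from a list of 38 other genes: ligands, receptor chains, kinases, STATs, inhibitors, phosphatases and the proteases that shed receptors. In SUM149PT, 34 were tested, and 12 were higher in CSCs, 15 lower and 7 did not pass, where 33.3% of all genes were higher and 41.5% lower. Their median log2 fold change was -0.13, beside -0.11 over all genes. CNTFR, higher at 0.203 against 0.0385 FPKM, reached the minimum for testing (0.1 FPKM averaged over the libraries) only through the CSCs, and JAK3, lower at 0.0919 against 2.28 FPKM, only through the non-CSCs. Without these genes 11 of 32 were higher and 14 lower. IL31RA, a receptor chain of the family, was the highest riser (mean 5.49 against 0.682 FPKM, log2 fold change 2.83, adjusted p = 4.95e-06). SOCS1, a feedback inhibitor of JAK kinases, was at 14.7 against 7.63 FPKM (0.96, adjusted p = 0.00678), and SOCS7 at 1.14 against 0.632 FPKM (0.77, adjusted p = 0.00696). On the other side, PTPN6, a phosphatase that restrains cytokine receptors, was at 0.692 FPKM in CSCs against 17.7 FPKM in non-CSCs (-4.49, adjusted p = 2.38e-06). CLCF1, a ligand of the family, was at 4.13 against 27.9 FPKM (-2.73, adjusted p = 5.69e-06). Genes of 1 role did not move as a block: of 10 inhibitors 3 were higher and 4 lower.

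For HCC1937, 34 of the 38 were tested, with 3 higher in CSCs, 8 lower and 23 not passing, beside 10.3% and 15.3% of all genes higher and lower, and a median of -0.05 beside -0.03 over all genes. EBI3, a subunit of cytokines related to the family, was at 3.66 against 1.59 FPKM (log2 fold change 1.15, adjusted p = 7.43e-04). SOCS5, an inhibitor, was at 10.5 against 7.33 FPKM (0.51, adjusted p = 0.00731). PTPN6 was lower here too, at 5.48 against 12.2 FPKM (-1.13, adjusted p = 6.84e-04). STAT5A stood at 1.91 against 3.23 FPKM (-0.73, adjusted p = 0.00274), and CLCF1 at 22.1 against 33.7 FPKM (-0.60, adjusted p = 0.00449). Of the 33 genes tested in both lines, 2 were higher in CSCs of both, IL31RA and SOCS5, where 5.93% of all genes were, so this count lies near the background. CISH, CLCF1, IL27RA, PTPN6 and STAT5A, 5 of the 33, were lower in both, where 10.1% of all genes were. STAT4 (0.68 in SUM149PT, -0.78 in HCC1937) had the opposite directions that STAT3 had. The kinase TYK2, singled out after its values were seen, ran from 23.5 to 25.9 FPKM in the group means, and PIAS3, an inhibitor of STAT3, is listed at 0 in all 15 libraries.

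Known target genes of STAT3, a list of 24, did not share a direction. In SUM149PT, 11 of 23 tested were higher in CSCs (33.3% of all genes were), 7 lower (41.5%) and 5 did not pass, with a median of 0.13 beside -0.11 over all genes. HGF, higher at 0.253 against 0.0278 FPKM, reached the minimum only through the CSCs, and without it 10 of 22 were higher (median 0.11). MYC, a driver of cell growth, was at 478.5 against 145.1 FPKM (log2 fold change 1.72, adjusted p = 4.27e-06). IRF1, an interferon response factor, was at 54.3 against 27.8 FPKM (0.96, adjusted p = 4.52e-05), and VEGFA, a growth factor of blood vessels, at 288.1 against 150.5 FPKM (0.94, adjusted p = 2.45e-05). Lower were MMP9, a matrix protease, at 1.64 against 17.3 FPKM (-3.32, adjusted p = 1.82e-06), and CEBPD, a transcription factor of the acute phase, at 26.2 against 70.2 FPKM (-1.42, adjusted p = 2.82e-04). TWIST1, a transcription factor of the mesenchymal state, was at 3.45 against 7.12 FPKM (-1.02, adjusted p = 3.46e-04).

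In HCC1937, 4 of 22 target genes were higher in CSCs (10.3% of all genes were), 6 lower (15.3%) and 12 did not pass, with a median of -0.08 beside -0.03 over all genes. TWIST1 was higher there, at 2.46 against 0.728 FPKM (log2 fold change 1.63, adjusted p = 1.75e-04). TNFRSF1A, a receptor of tumor necrosis factor, was at 116.7 against 75.3 FPKM (0.63, adjusted p = 0.00368), and PIM2, a survival kinase, at 4.13 against 2.97 FPKM (0.46, adjusted p = 0.0243). Lower were PIM1 at 18.8 against 31.6 FPKM (-0.75, adjusted p = 0.00271), IRF9 at 16.7 against 27.1 FPKM (-0.70, adjusted p = 0.00569), and FOS at 52.3 against 70.7 FPKM (-0.43, adjusted p = 0.0127). None of the 22 genes tested in both lines passed limma's test in the same direction in both (count of 0), and 6 passed in opposite directions. Of all genes tested in both, 5.93% were higher in both, 10.1% lower in both and 5.84% opposite. Of these 6, BCL2L1 (0.57 in SUM149PT, -0.37 in HCC1937), FOS (0.90, -0.43), IRF1 (0.96, -0.40), IRF9 (0.36, -0.70) and VEGFA (0.94, -0.37) had the directions of STAT3 itself, and TWIST1 the reverse. The fold change differed between lines for 19 of the 22, beside 61.1% of all genes.

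Acute phase genes, which IL6 and STAT3 are known to switch on in the liver, were lower in CSCs wherever a line's own fit tested them. In SUM149PT 6 of 6 with means over 0.1 FPKM in both fractions were lower (SAA1, SAA2, SERPINA3, ORM1, CP and LCN2), where 41.5% of all genes were. LBP and A2M were lower as well, but they passed the minimum only through the non-CSCs. In HCC1937 all 5 tested were lower (CP, LCN2, SAA1, SAA2 and SERPINA3, median -1.76), where 15.3% of all genes were. The fit over all 15 libraries also tested ORM1 and LBP there, which did not pass. ORM1 was at 0.0486 FPKM in CSCs against 0.0315 FPKM, and LBP is listed at 0 in both fractions. LCN2, an iron-sequestering secreted protein, was at 93.4 against 2361 FPKM in SUM149PT (-4.66, adjusted p = 1.49e-06) and at 269.9 against 1322 FPKM in HCC1937 (-2.29, adjusted p = 1.36e-04). SERPINA3, a protease inhibitor, was at 2.43 against 39.9 FPKM (-3.99, adjusted p = 5.94e-06) and at 12.4 against 98.8 FPKM (-2.98, adjusted p = 1.28e-04). LBP in SUM149PT was at 0.0611 against 2.34 FPKM. SAA2 in HCC1937 was at 2.33 against 8.08 FPKM (-1.76, adjusted p = 2.68e-04).

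**Figure D3:**
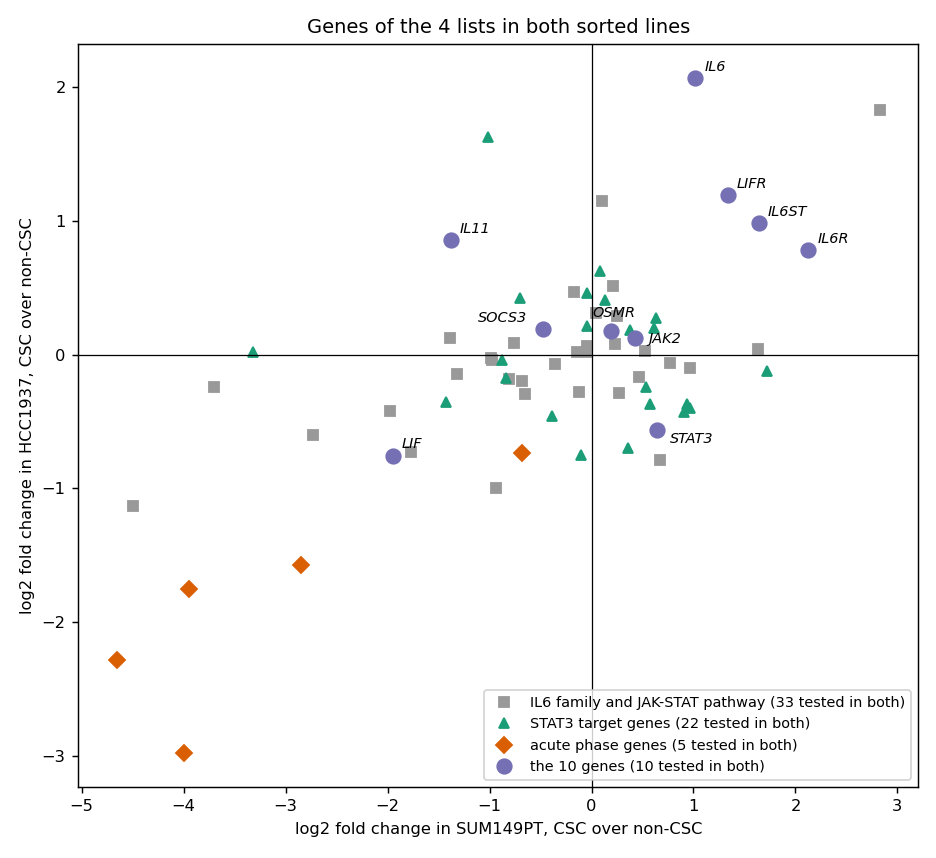
Log2 fold change of CSCs over non-CSCs in SUM149PT (horizontal axis) and HCC1937 (vertical axis) for the 10 genes and the genes of the 3 lists tested in both lines; each point is a gene and the 2 lines share no library. All 5 acute phase genes lie at the lower left with LIF, IL6, IL6R, IL6ST and LIFR lie at the upper right, and STAT3 lies at the lower right.

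Markers of cell state and of other cell types moved with the fractions. CD24, 1 of the proteins sorted on, was at 7.74 FPKM in CSCs against 139.5 FPKM in non-CSCs of SUM149PT (log2 fold change -4.15) and at 23.3 against 150.04 FPKM in HCC1937 (-2.67). CD44 was higher in CSCs of SUM149PT (0.39, adjusted p = 0.00168) and did not pass in HCC1937 (0.12, adjusted p = 0.314). ESR1 and ERBB2, whose proteins these tumors lack or hold at low levels, were lower in CSCs of both lines, ESR1 in SUM149PT with a CSC mean under 0.1 FPKM. The summed level of CD44, CD24, ESR1, PGR and ERBB2 was 95.7 and 211.5 FPKM in CSCs and non-CSCs of SUM149PT, 140.2 and 267.1 FPKM in those of HCC1937, and 48.6 FPKM in SUM159PT. All 7 epithelial markers were lower in CSCs of both lines, where 41.5% of all genes were in SUM149PT and 15.3% in HCC1937, and their sum was 131.4 against 1804 FPKM in SUM149PT, 585.3 against 1553 FPKM in HCC1937 and 287.1 FPKM in SUM159PT, with keratins the most abundant. Of 6 mesenchymal markers, 6 were higher in CSCs of SUM149PT and 5 in those of HCC1937 (SNAI2 had 0.37, adjusted p = 0.0964), where 33.3% and 10.3% of all genes were. Their sum, mostly vimentin (VIM), was 2441 against 479.3 FPKM in SUM149PT, 990.7 against 183.8 FPKM in HCC1937 and 1242 FPKM in SUM159PT. The part of these states in the levels of IL6, LIF and their receptors was not tested.

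Of 9 leukocyte markers, PTPRC, which marks leukocytes, and CD3E, which marks T cells, had group means of at most 0.0660 FPKM. The leukocyte sum was 19.2 and 99.9 FPKM in CSCs and non-CSCs of SUM149PT, 103.3 and 71.4 FPKM in those of HCC1937 and 50.8 FPKM in SUM159PT, and CD14 or CD68 was the most abundant. In SUM149PT 2 of 3 tested were lower in CSCs (41.5% of all genes were), and in HCC1937 1 of 4 was higher (10.3%) and 1 lower (15.3%). Of 8 fibroblast markers, 4 of 6 tested were higher (33.3% of all genes were) and 2 lower (41.5%) in CSCs of SUM149PT, and 2 of 3 were higher in those of HCC1937 (10.3%). Their sum, with COL1A1 the most abundant, was 241.7 and 69.1 FPKM in SUM149PT, 12.3 and 7.10 FPKM in HCC1937 and 46.4 FPKM in SUM159PT. Endothelial markers summed to at most 1.71 FPKM in any group, with PECAM1, VWF or KDR the most abundant. Only PECAM1 had means over 0.1 FPKM in both fractions, and it was lower in CSCs of SUM149PT and did not pass in HCC1937. Whether other cell types had a part in the levels of the 10 genes was not tested.

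The genes whose pattern was most like that of IL6, by Pearson correlation of log2 levels over the 15 libraries among 12164 genes, were STEAP2 (0.971), PVRL3 (0.970), OSBPL6 (0.968), ABCA1 (0.966) and IKBIP (0.964). In the 12 sorted libraries their correlations were 0.926, 0.935, 0.953, 0.942 and 0.925. ABCA1, a cholesterol exporter, had means of 11.2 and 5.60 FPKM in CSCs and non-CSCs of SUM149PT, 6.61 and 2.60 FPKM in those of HCC1937 and 0.429 FPKM in SUM159PT. Among the genes most like STAT3 were OAS3 (0.980), TMEM40 (0.975), INPP5A (0.973) and STK35 (0.968), with 0.993, 0.984, 0.976 and 0.966 in the sorted libraries. OAS3, an interferon-induced enzyme, had means of 3.89 and 2.15 FPKM in SUM149PT, 5.17 and 9.07 FPKM in HCC1937 and 2.20 FPKM in SUM159PT. These correlations describe 5 groups of 3 libraries that share their line and sort, and libraries of a group are not independent points.

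In uncorrected FPKM SUM159PT, the unsorted line, had little RNA of the ligands, IL6ST and JAK2. Its STAT3 and SOCS3 lay near the levels of the sorted lines on that scale. IL6 stood at 1.495, 1.70 and 1.21 FPKM in its libraries. LIF was at 1.75, 2.14 and 1.75 FPKM, and IL11 at 0.160, 0.188 and 0.119 FPKM. All these values lie below those of the same gene in every sorted library. The shared chain IL6ST was at 0.972, 0.947 and 1.53 FPKM, OSMR at 4.34, 4.69 and 5.73 FPKM, and JAK2 is listed at 0.0202, 0.0615 and 0.0103 FPKM, again under every sorted library. LIFR was at 0.353, 0.374 and 0.429 FPKM and IL6R at 2.20, 2.25 and 2.09 FPKM, within the range of the sorted groups. Its STAT3 values were 23.8, 27.4 and 23.5 FPKM, between the CSCs and non-CSCs of SUM149PT. SOCS3 was at 24.8, 29.5 and 24.2 FPKM and overlapped the non-CSCs of SUM149PT. In uncorrected FPKM IL6R and OSMR exceeded IL6ST in this line: they reached 200.1% ± 55.4 and 438.6% ± 61.1 of its level (SD, n = 3), and LIFR 34.6% ± 5.95. These shares depend on the GC trend described below. With it removed, a step added after seeing the data, IL6R was at 52.0% ± 11.3 of IL6ST and so below it, OSMR at 211.7% ± 21.7 and LIFR at 40.4% ± 6.79, on the scale of FPKM with 0.1 added.

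Against SUM149PT CSCs all 10 genes differed, where 81.7% of all genes did, and against HCC1937 CSCs 9 of 10, all but IL6R, where 84.8% did. JAK2, with a SUM159PT mean of 0.0307 FPKM, reached the minimum for testing only through the sorted groups. Without it, 1 of 9 genes was higher and 8 lower than in SUM149PT CSCs. Of the same 9, 1 was higher and 7 lower than in HCC1937 CSCs. These comparisons share the SUM159PT libraries and are given side by side. IL6 differed by -3.71 from SUM149PT CSCs and by -3.43 from HCC1937 CSCs on the log2 scale, LIF by -3.55 and -3.43, and IL11 by -5.07 and -5.79 (-3.03 and -3.70 with 1 FPKM added). IL6ST differed by -5.59 and -5.21, LIFR by -3.71 and -0.92, and OSMR by -2.20 and -1.44. JAK2, near 0 in SUM159PT, gave -3.58 and -3.21, values that depend on the amount added (-5.36 and -4.96 with 0.01 FPKM). STAT3 was lower by less, -0.38 (adjusted p = 2.03e-04) and -0.75 (adjusted p = 3.09e-07), and SOCS3 was higher, 0.41 (adjusted p = 1.69e-04) and 1.16 (adjusted p = 6.30e-09). With TPM rescaling STAT3 was at -1.47 and -1.75. IL6R differed by -0.51 (adjusted p = 2.95e-04) and -0.03 (adjusted p = 0.809). Other scalings turned some of these differences: IL6R became 0.77 and 1.42 with quantile normalization and -1.59 and -1.01 (adjusted p = 5.83e-06) with TPM rescaling, LIFR became 0.75 with quantile normalization against HCC1937 CSCs, and SOCS3 became -0.67 and 0.16 (the latter not past the test) with TPM rescaling. With the length trend removed, a correction chosen after seeing the data, IL6R became 1.31 and 1.81, STAT3 1.22 and 0.93, LIFR 1.24 and OSMR 0.32 against HCC1937 CSCs. The median over all genes was -0.60 and -0.85, and it moved to 0.06 and 0.02 with quantile normalization and to -1.63 and -1.83 with TPM rescaling. Against the non-CSCs, 9 of the 10 genes differed from SUM149PT (all but SOCS3; 85.6% of all genes) and 10 from HCC1937 (85.6%). Without JAK2, which here too reached the minimum only through the sorted groups, 2 of 9 were higher and 6 lower than in SUM149PT non-CSCs. Of the same 9, 3 were higher and 6 lower than in HCC1937 non-CSCs. LIF, IL11 and IL6ST stayed lower than in both non-CSC groups under every alternative in which they were tested. JAK2 did as well where it was tested. All of these alternatives were run for these groups after seeing the data. Against SUM149PT non-CSCs, LIFR turned to 0.41 with the GC trend removed and STAT3 to -0.78 with TPM rescaling, and SOCS3 ran from -1.11 with TPM rescaling to 0.70 with the length trend removed. Against HCC1937 non-CSCs, OSMR turned to 0.40 and 0.52 after removal of the GC and of the length trend, STAT3 to 0.40 with the length trend removed, and LIFR and IL6R to -0.46 and -0.08 with TPM rescaling.

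SUM159PT levels also followed the base composition of the transcripts. Over the 14188 tested genes with a GC content (86.7%), the log2 difference from SUM149PT CSCs had a Spearman correlation of 0.602 with GC content, and that from HCC1937 CSCs 0.521, while the fraction differences within SUM149PT and HCC1937 had -0.138 and -0.183. This is a correlation across genes, which are not independent replicates. With the genes cut into 10 equal classes by GC content, in the lowest class, which holds IL6ST and LIFR, the median difference from SUM149PT CSCs was -2.87. It was -2.54 in the class of JAK2, -1.51 in that of IL6 and OSMR, -0.40 in that of IL6R and STAT3, 0.01 in that of IL11, 0.45 in that of LIF and 0.54 in that of SOCS3. LIF (-3.55) and IL11 (-5.07) lay furthest below the median of their class, followed by IL6ST (-5.59) and IL6 (-3.71), while SOCS3 (0.41), STAT3 (-0.38) and IL6R (-0.51) lay close to it. Against HCC1937 CSCs STAT3 (-0.75) was again close to its class (-0.62), but IL6R (-0.03) lay above that class and SOCS3 (1.16) above its own (0.33). LIFR (-0.92) lay furthest above its class (-2.95), and OSMR (-1.44) lay above its class as well (-1.72).

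A correction that removes this trend from each library was chosen after seeing the data. With it, the differences from SUM149PT CSCs were -4.01 for LIF, -5.41 for IL11, -2.77 for IL6ST, -2.07 for IL6, -0.997 for JAK2, -0.86 for LIFR and -0.71 for OSMR, all still past the test. IL6R was at -0.29, STAT3 became 0.07 (adjusted p = 0.277) and SOCS3 -0.23. From HCC1937 CSCs, LIF, IL11, IL6ST (-2.36), IL6 (-1.65) and JAK2 (-0.50) stayed lower and SOCS3 stayed higher. STAT3 no longer passed there (-0.05, adjusted p = 0.400), and IL6R (0.45), LIFR (1.95) and OSMR (0.21) turned higher. The part of base composition in the SUM159PT levels was not tested further. The labels do not say whether the SUM159PT libraries were prepared and sequenced in the same batch as the sorted ones, so a difference between batches and a difference between lines cannot be told apart in any of the SUM159PT values. SUM159PT was also the only line sequenced unsorted, so an effect of sorting cannot be told apart from the line either.

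**Figure D4:**
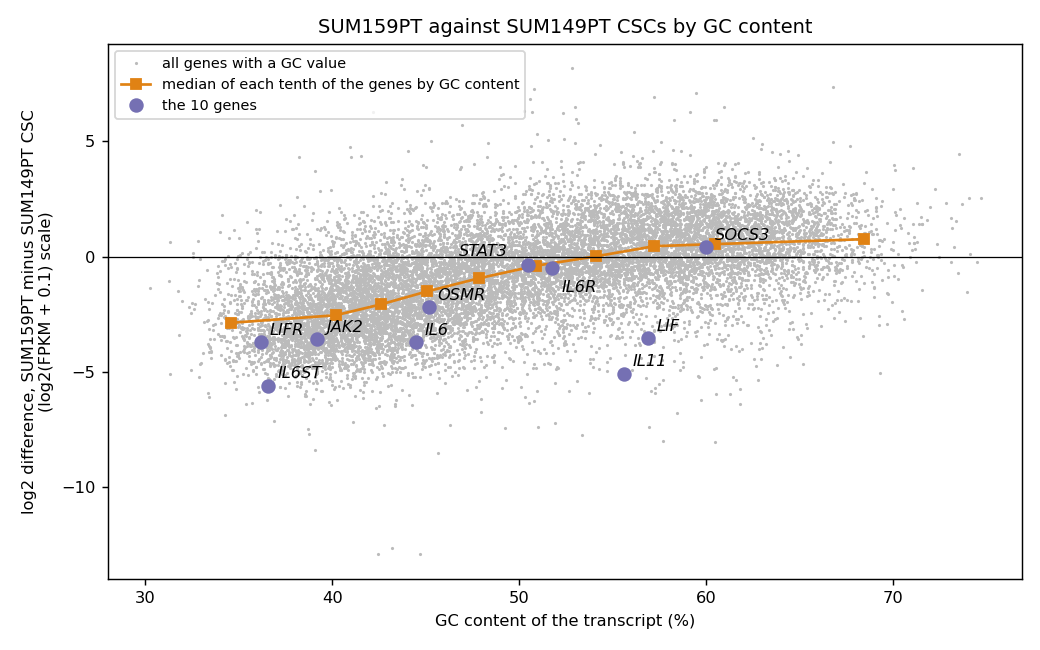
Log2 difference of SUM159PT minus SUM149PT CSCs (vertical axis, log2(FPKM + 0.1) scale) against the GC content of each gene's transcript in percent (horizontal axis); grey points are genes, squares the medians of 10 equal classes of genes by GC content, and circles the 10 genes. The medians rise from -2.87 to 0.75, LIF and IL11 lie far under them, and IL6R, STAT3 and SOCS3 lie close to them.

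In SUM159PT, 81.7% of all genes were called against SUM149PT CSCs, 34.7% of these calls higher, and 84.8% against HCC1937 CSCs, 32.5% of them higher, and these shares move with the scaling. For the other genes of the pathway, 9 of 34 were higher and 22 lower than in SUM149PT CSCs (median -1.46, beside -0.60 over all genes), and 7 higher and 22 lower than in HCC1937 CSCs (-1.04, beside -0.85). In both comparisons CNTF, JAK3, OSM, PTPN6 and STAT4 had a group mean under 0.1 FPKM, and without them 9 of 29 were higher and 17 lower (median -1.03), and 7 higher and 17 lower (-0.65). Of 22 target genes of STAT3, 5 were higher and 15 lower against SUM149PT CSCs (median -0.78), and 12 higher and 8 lower against HCC1937 CSCs (0.25). MMP9, lower in both, had a mean under 0.1 FPKM in SUM159PT. Of the acute phase genes with means over 0.1 FPKM in both groups, 4 were higher and 1 lower of 5 against SUM149PT CSCs, and 3 higher and 1 lower of 4 against HCC1937 CSCs. Genes with a group mean under 0.1 FPKM, CP and LBP in both comparisons and ORM1 in the latter, are not counted.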

How the data were processed

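RNA was extracted from the sorted or unsorted cells with DNase treatment, polyadenylated RNA was enriched on oligo(dT) beads, and libraries were sequenced on Illumina instruments per the labels. The deposited table holds FPKM per gene and library as made by the authors, whose notes name Bowtie2 and GRCh38. The tool that computed FPKM is not given in the sources used here. Nothing was read from raw sequence, all 15 libraries were used, and depth is unknown.

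FPKM values were used as log2(FPKM + 0.1) for genes averaging 0.1 FPKM or more over the fitted libraries. limma 3.58.1 (lmFit and eBayes, R 4.3.3) was fitted over all such genes within each sorted line (6 libraries), as an interaction over the 12 sorted libraries, and over 15 libraries for pairs of groups. Every adjusted p is limma's, with Benjamini-Hochberg over all genes tested, and a result passed at 0.05 or less. In the order of levels, neighbours of 1 line use that line's own fit. Ratios and means are of untransformed FPKM. Alternatives were amounts of 0.01 and 1 FPKM added, no minimum and a minimum mean of 1 FPKM, upper quartile scaling, quantile normalization, TPM rescaling (to a common sum), eBayes with trend and robust, the replicate number as a block, other sets of libraries, and each library left out. Removal of a smooth trend on transcript GC content or length (GENCODE gene models) was added after seeing the data. The permutation tests were run in R, and Python 3.11.15 with pandas 2.3.3, numpy 2.4.6 and matplotlib 3.10.9 was used for sequences and plots. The fits were tested on simulated data.

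The 10 genes and the lists were chosen with earlier results of these data known. Named from each list were up to 3 genes per direction with an adjusted p of at most 0.05, no overlap, a mean of at least 1 FPKM in a group and the largest fold change. From the marker lists the sums and most abundant genes are given, and for likeness the 5 genes with the highest Pearson correlation among those averaging 1 FPKM or more. Some results that these rules would name are not reported here. Other genes named beside a count were chosen after their values were seen.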

Additional observations from a re-analysis of the deposited data

Results flagged for a closer look

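For 7 of the 10 genes the fold change of CSCs over non-CSCs differed between SUM149PT and HCC1937 by limma's interaction term, given here as SUM149PT minus HCC1937 on the log2 scale. IL6 rose less in SUM149PT (-1.06, adjusted p = 7.50e-04). LIF fell further in SUM149PT (-1.19, adjusted p = 6.37e-07). IL11 fell in SUM149PT and rose in HCC1937 (-2.24, adjusted p = 2.00e-07). IL6R rose more in SUM149PT (1.34, adjusted p = 2.39e-05), and so did IL6ST (0.66, adjusted p = 1.07e-04). STAT3 rose in SUM149PT and fell in HCC1937 (1.21, adjusted p = 8.05e-07). SOCS3 fell in SUM149PT and did not pass in HCC1937 (-0.67, adjusted p = 2.74e-05). Over all genes, 61.1% passed the same test.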

How the results depend on the processing

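Of 1305 values recomputed under the alternatives, those of SUM159PT against the non-CSCs not included, 1228 kept their direction and their side of the limit, 26 passed where they had not, 25 no longer passed and 26 turned direction. No count of members passing an adjusted p of 0.05 moved by more than 1.5 times. At the stricter limit (adjusted p at most 0.0001, absolute fold change at least 1 on the log2 scale) the counts did move. In SUM149PT the 5 members became 0 with the replicate number as a block, 2 without non-CSC replicate 1 or 2, 3 without non-CSC replicate 3, 2 without CSC replicate 1 or 2 and 1 without CSC replicate 3. In HCC1937 the 0 became 1 with 1 FPKM added, 1 with a minimum mean of 1 FPKM, 1 with eBayes trend and robust and 2 in the fit over all 15 libraries. Within SUM149PT and within HCC1937 no member turned direction. The turned values were as follows, and for each the cause was not tested. For the difference between lines, LIFR was -0.0398 with 0.01 FPKM added and -0.0562 with TPM rescaling, and OSMR was -0.0713 with TPM rescaling and ran from -0.0177 to 0.0407 with each library left out in turn. For HCC1937 minus SUM149PT non-CSCs, JAK2 was 0.0647 with quantile normalization. For SUM159PT minus HCC1937 CSCs, IL6R was 0.38 with upper quartile scaling, 1.42 with quantile normalization, 0.45 after removal of the GC trend and 1.81 after that of the length trend, and ran from -0.0844 to 0.0215 with each library left out. In the same comparison LIFR was 0.75, 1.95 and 1.24 under the last 3 of these settings, OSMR was 0.21 with the GC trend and 0.32 with the length trend removed, and STAT3 was 0.93 with the length trend removed. For SUM159PT minus SUM149PT CSCs, IL6R was 0.77 with quantile normalization and 1.31 with the length trend removed. SOCS3 there was -0.67 with TPM rescaling and -0.23 with the GC trend removed, and STAT3 was 0.0682 with the GC trend and 1.22 with the length trend removed.

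Deviations of libraries with the same replicate number correlated at 0.087, 0.024 and 0.080 between the fractions of SUM149PT. In HCC1937 they correlated at -0.084, -0.036 and -0.019. Numbers 1 and 3 gave the highest values of any pair in SUM149PT, while in HCC1937 no library correlated best with its own number. With 3 libraries per fraction these values cannot decide whether libraries of the same number come from 1 sort. The main fits leave them unpaired. With the number as a block, 11492 genes passed in SUM149PT (11993 without it) and 3066 in HCC1937 (3985 without it). The block ended the calls of OSMR in SUM149PT (adjusted p = 0.0620) and of JAK2 between the CSC fractions (0.0673) and changed no other call of a member. With each library left out in turn, 11153 to 11452 genes passed in SUM149PT and 2709 to 3638 in HCC1937, and 5 to 7 members were higher in SUM149PT CSCs. With a minimum mean of 1 FPKM, LIFR was not tested in HCC1937 and JAK2 was not tested between groups. Of the calls over all genes, 44.6% were higher in SUM149PT CSCs (54.9% with quantile normalization) and 40.3% in HCC1937 CSCs (53.0% with quantile normalization, 56.1% with TPM rescaling). For SUM159PT against SUM149PT CSCs the share was 34.7% (50.6% with quantile normalization, 17.3% with TPM rescaling, 48.5% and 50.7% without the GC and length trends), and against HCC1937 CSCs 32.5% (50.1%, 17.1%, 49.6% and 51.2%). FPKM without counts give no limit of detection, so low values such as those of JAK2 in SUM159PT carry an unknown counting error.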
